A study of Mus musculus with 20 samples.

Results

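Prostaglandins and leukotrienes are lipid mediators made from arachidonic acid, and 10 mouse genes of this route were followed in BV-2 cells, an immortalized mouse microglial line. They were picked as a list of named genes of this route, 10 of 55487 gene identifiers in the table. Pla2g4a encodes the cytosolic phospholipase A2 that frees arachidonic acid from membranes. Ptgs1 and Ptgs2 encode the cyclooxygenases COX-1 and COX-2, which turn it into prostaglandin H2. Ptges and Ptges2 encode prostaglandin E synthases and Tbxas1 the thromboxane A synthase, which act on prostaglandin H2. Alox5 encodes 5-lipoxygenase, Alox5ap its activating protein FLAP and Lta4h the leukotriene A4 hydrolase, which together lead to leukotriene B4. Ptger4 encodes EP4, a receptor of prostaglandin E2. In microglia, as in other macrophages, COX-2 and the prostaglandin E synthase encoded by Ptges are the classical inducible enzymes of this route after bacterial lipopolysaccharide (LPS), a ligand of Toll-like receptor 4.

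RNA was sequenced from 20 cultures of wild-type BV-2 cells in 4 groups of 5. Young (control) cultures were at low passage and aged cultures had been cultivated for a long term. Each age was either left untreated or given 100 ng/ml LPS for 6 hours, and all cultures grew in DMEM with fetal bovine serum. The cells are 1 proliferating line whose age is time in culture, so the replicates are cultures and not animals. Aged cells were frozen after the long culture and used as aliquots. Whether the 5 aged cultures came from separate long-term cultures is not given in the sources used here. The p-values for age may therefore not cover the spread between separate long-term cultures. The labels number the replicates of each group 1 to 5. The 4 cultures of 1 number, 1 from each group, are called a batch here.

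Total counts per library ranged from 11371508 to 16829292, with group medians within 14257954 to 14458210. All 14 microglial and macrophage markers examined were detected, with summed levels of 3062 to 4313 CPM (read counts normalised to library size) in young and 2558 to 3732 CPM in aged untreated cultures. With LPS these sums were 3536 to 4902 CPM in young and 2989 to 4266 CPM in aged cultures. The log2 differences of the single markers between aged and young untreated cultures ranged from -1.15 for Aif1 to 0.021 for Tmem119. The homeostatic microglial markers P2ry12 and Cx3cr1 were scarce, with means of 1.17 and 1.05 CPM in young untreated cultures. All 6 mast cell and all 6 fibroblast markers, and 3 of 5 neutrophil, 3 of 5 endothelial, 4 of 5 lymphocyte, 4 of 6 astrocyte, 5 of 6 neuron and 4 of 6 oligodendrocyte markers, were at or below 3 counts in every library. The 5 endothelial markers summed to 94.5 to 108 CPM in young and 66.1 to 81.0 CPM in aged untreated cultures, which did not overlap, and to 90.3 to 112 CPM and 81.9 to 94.7 CPM with LPS, and their part in the results was not tested. The 8 genes of an LPS response check summed to 5826 to 8420 CPM in young and 3408 to 4683 CPM in aged LPS-treated cultures, against 116 to 341 CPM without LPS. Library sizes for CPM were scaled by the trimmed mean of M-values (TMM), and 3 counts, the floor of detection, correspond to 0.165 to 0.296 CPM. In bulk RNA, fewer cells with a transcript and fewer transcripts per cell cannot be told apart.

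The sequences before the start sites of the 3 genes with the largest LPS responses among the 10, up or down, are shown so that the responses can be read beside them. They are from RefSeq, build GRCm38.p6, written 5′ to 3′ on the strand of each gene, with positions counted from the RefSeq start (the first transcribed base is 1 and the base before it is -1). Capitals mark matches to the motifs searched.

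Ptgs2, chr1:150099911-150100030, plus strand, bases -120 to -1:
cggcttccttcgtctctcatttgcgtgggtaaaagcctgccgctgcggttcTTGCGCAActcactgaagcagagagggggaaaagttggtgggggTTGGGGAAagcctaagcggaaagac

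Ptgs2, chr1:150100036-150100059, plus strand, bases 6 to 29, in the first exon:
caccactaCGTCACGTGgagtccg

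Ptges, chr2:30903298-30903417, minus strand, bases -120 to -1:
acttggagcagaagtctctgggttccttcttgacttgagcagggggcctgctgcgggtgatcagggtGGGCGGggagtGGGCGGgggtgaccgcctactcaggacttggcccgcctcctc

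Ptgs1, chr2:36230306-36230425, plus strand, bases -120 to -1:
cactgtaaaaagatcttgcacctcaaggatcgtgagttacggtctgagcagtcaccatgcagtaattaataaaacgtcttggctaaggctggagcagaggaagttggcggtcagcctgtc

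In the Ptgs2 stretch the capitals are 2 matches to the C/EBP motif TTNNGNAA, at bases -69 to -62 and -25 to -18. In the short Ptgs2 stretch they are CGTCA, the reverse complement of the CRE core TGACG, at bases 14 to 18, and the E-box CACGTG at bases 17 to 22, which share 2 bases. Of the 120 Ptgs2 bases before the start, 53 lie in an exon of the antisense gene Ptgs2os, which held at most 1 count per untreated library, 2 to 6 counts in young and 3 to 11 counts in aged LPS-treated libraries. In the Ptges stretch, which lies within the annotated Ptges gene but outside its exons, the capitals are 2 GC boxes GGGCGG at bases -53 to -48 and -42 to -37. The Ptgs1 stretch lies outside annotated genes, and its whole window of 300 bases (250 before the start and 50 from it on) held none of the 8 motifs searched on both strands.

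Over the 32851 RefSeq windows of that length, TTNNGNAA was in 40.7%, GGGCGG in 35.7%, TGACG in 20.8%, CACGTG in 7.15%, the AP-1 motif TGANTCA in 7.81%, TATAAA in 13.6%, the full CRE TGACGTCA in 1.79% and the kappa-B consensus in 4.5%. Windows were found for 9 of the 10 genes, 10 windows in all. TTNNGNAA was in windows of Ptgs2, Ptges, Ptges2 and Pla2g4a, GGGCGG in those of Ptgs2, Ptges, Ptger4 and Alox5, CACGTG in those of Ptgs2 and Ptges2, TATAAA in those of Pla2g4a and Tbxas1, TGACG in that of Ptgs2 and TGANTCA in that of Tbxas1. None held the full CRE or the kappa-B consensus in these 300 bases. These matches describe letters only, and those to short motifs are found in many windows of other genes.

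**Figure D1:**
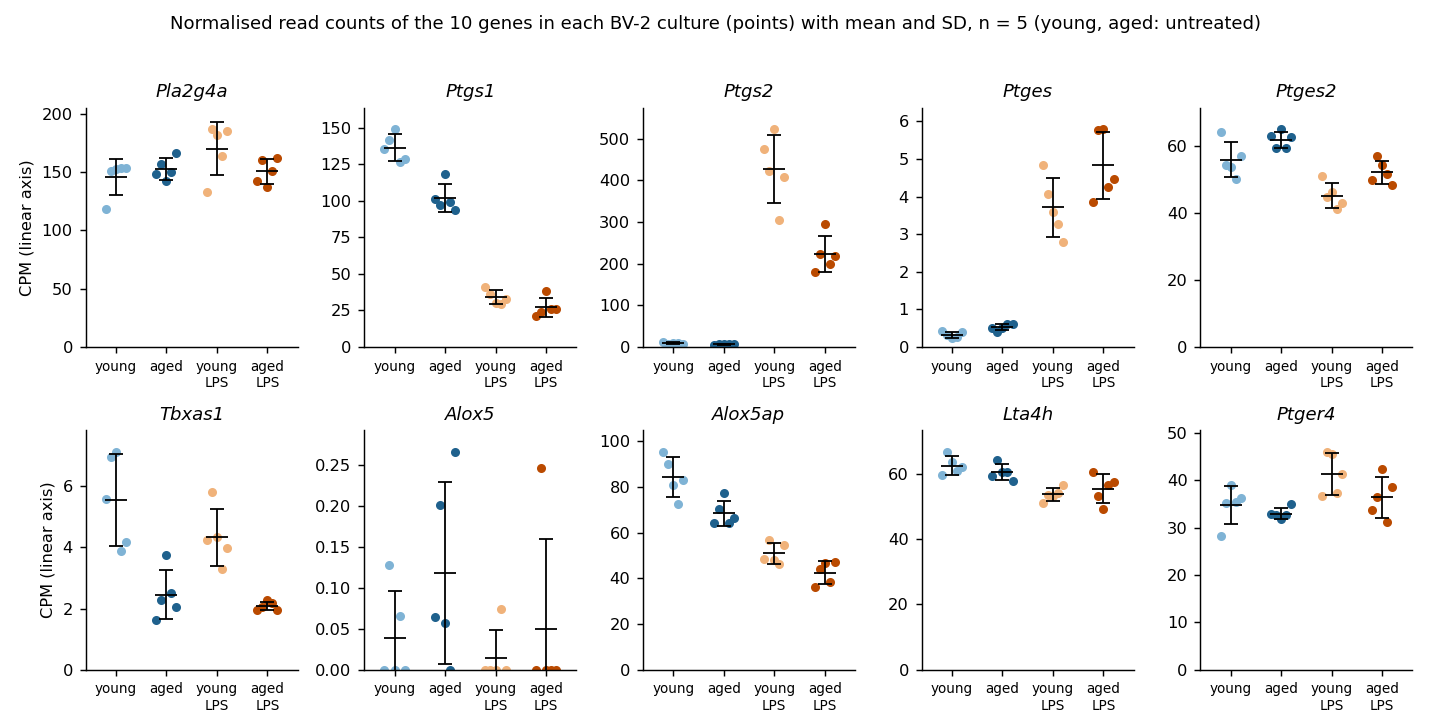
Normalised read counts (CPM, linear axis from 0, a different scale for each gene) of the 10 genes in every culture of the 4 groups, with the mean and SD of 5 cultures. Ptgs2 reached 305 to 523 CPM in young and 180 to 297 CPM in aged LPS-treated cultures from at most 12.1 CPM without LPS, Ptgs1 fell from at least 93.9 CPM to at most 40.9 CPM, and Alox5 stayed at or below 0.266 CPM.

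The phospholipase gene Pla2g4a (chromosome 1, 149829618 to 149961290, minus strand, GRCm38) was well expressed in every group and moved little. In young untreated cultures its level was 118, 151, 152, 154 and 154 CPM in batches 1 to 5, and in aged untreated cultures 148, 157, 142, 151 and 166 CPM. With LPS it was 133, 187, 182, 164 and 185 CPM in young and 143, 161, 138, 151 and 162 CPM in aged cultures. The young culture of batch 1 was the lowest of its group with and without LPS, and all 4 groups overlapped. In young cultures the LPS difference was 0.22 ± 0.084 on the log2 scale (edgeR adjusted p = 0.0235), higher in 5 of 5 batches by 1.07- to 1.24-fold. That call was lost when only library sizes were used for scaling (log2 difference 0.0028, edgeR adjusted p = 0.98), and when any of 4 single libraries was left out (the young untreated culture 1 or the young LPS-treated cultures 2, 3 or 5, edgeR adjusted p 0.0597 to 0.0848) or batch 2, 3 or 5 (edgeR adjusted p 0.0657 to 0.0947). With only the groups compared the call was lost as well (edgeR adjusted p = 0.057). In aged cultures the LPS difference was -0.02 ± 0.084 (edgeR adjusted p = 0.863), and the difference between the responses of the 2 ages was -0.24 ± 0.118 (edgeR adjusted p = 0.263). Aged LPS-treated cultures were 0.18 ± 0.084 below young ones on the log2 scale, which did not pass the test (edgeR adjusted p = 0.123) but did with the batches as a block (log2 difference -0.17, edgeR adjusted p = 0.0364) and without the young LPS-treated culture 1 (-0.25, edgeR adjusted p = 0.0112). Without batch 1 this difference passed as well (-0.23, edgeR adjusted p = 0.00708).

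The cyclooxygenase genes responded to LPS in opposite directions. Ptgs2 (chromosome 1, 150100031 to 150108227, plus strand), whose product COX-2 is the inducible form, was at 12.1, 7.98, 9.05, 8.76 and 6.58 CPM in young untreated cultures of batches 1 to 5. In aged untreated cultures it was at 5.23, 7.80, 7.98, 6.20 and 7.05 CPM, values that overlapped with the young ones. With LPS the young cultures held 477, 422, 523, 305 and 409 CPM and the aged ones 180, 223, 297, 199 and 218 CPM. Every LPS-treated culture was far above every untreated one, and the highest aged LPS-treated culture was below the lowest young one.

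The Ptgs2 mean rose from 8.90 ± 2.04 to 427 ± 81.9 CPM (SD, n = 5) in young cultures, a fitted 48.0-fold difference (log2 5.59 ± 0.175, edgeR adjusted p = 2.44e-17), and by 34.8- to 62.1-fold within batches. In aged cultures it rose from 6.85 ± 1.15 to 223 ± 44.4 CPM, a fitted 32.6-fold difference (log2 5.02 ± 0.176, edgeR adjusted p = 2.4e-16), and by 28.7- to 37.2-fold within batches. Aged LPS-treated cultures were 1.91-fold below young ones (log2 -0.94 ± 0.136, edgeR adjusted p = 2.04e-05), lower in 5 of 5 batches by 1.53- to 2.65-fold. Without LPS the aged mean was lower by 0.37 ± 0.197 on the log2 scale, which did not pass the test (edgeR adjusted p = 0.239). The LPS response itself was smaller in aged cultures by 0.56 ± 0.24 (95% confidence interval of the difference -1.06 to -0.064) and in 5 of 5 batches, but the difference failed the correction over all genes (edgeR adjusted p = 0.19, and 0.0926 with the batches as a block).

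Ptgs1 (chromosome 2, 36230426 to 36252272, plus strand), which encodes the constitutive COX-1, was at 135, 142, 149, 127 and 128 CPM in young and 101, 97.1, 118, 99.1 and 93.9 CPM in aged untreated cultures. With LPS it was at 40.9, 36.5, 30.3, 29.5 and 32.5 CPM in young and 20.9, 24.0, 38.4, 25.7 and 26.1 CPM in aged cultures. Untreated cultures of the 2 ages did not overlap and lay above every LPS-treated culture, and the aged LPS-treated culture 3 stood above the other aged ones, within the young range.

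LPS lowered Ptgs1 4.03-fold in young cultures (log2 -2.01 ± 0.117, edgeR adjusted p = 8.96e-13) and 3.76-fold in aged cultures (log2 -1.91 ± 0.118, edgeR adjusted p = 4.83e-12). The responses differed by 0.098 ± 0.164 (95% confidence interval -0.24 to 0.44, edgeR adjusted p = 0.824). Without LPS, Ptgs1 was 1.34-fold lower in aged cultures (log2 -0.42 ± 0.109, edgeR adjusted p = 0.015), lower in 5 of 5 batches. That call was lost without batch 2 (edgeR adjusted p = 0.116) or batch 5 (edgeR adjusted p = 0.0674), and kept when any single library was left out. With LPS the aged level was lower by 0.32 ± 0.122 on the log2 scale and in 4 of 5 batches, just outside the threshold (edgeR adjusted p = 0.0536). With the batches as a block it passed (log2 difference -0.33, edgeR adjusted p = 0.03), as it did without the aged LPS-treated culture 3 (log2 difference -0.48, edgeR adjusted p = 5.37e-04) or without the young LPS-treated culture 3 (edgeR adjusted p = 0.0497) or 4 (edgeR adjusted p = 0.0354). It passed as well by DESeq2 (DESeq2 adjusted p = 0.0301) and with DESeq2 size factors (edgeR adjusted p = 0.0471). Without a filter (edgeR adjusted p = 0.0467), with at least 10 counts in every library (edgeR adjusted p = 0.0497) and without batch 3 (edgeR adjusted p = 2.64e-04) it also passed. It did not pass with library sizes alone, with only the groups compared or without batch 1, 2, 4 or 5.

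Since the fall of Ptgs1 and the rise of Ptgs2 move the balance of the cyclooxygenase transcripts the same way, the share of Ptgs2 in their sum, each per kilobase of exon, was taken in every culture. It was 7.06%, 4.56%, 4.90%, 5.54% and 4.17% in young and 4.20%, 6.38%, 5.41%, 5.04% and 5.99% in aged untreated cultures. After LPS it was 90.8%, 90.8%, 93.6%, 89.8% and 91.4% in young and 87.9%, 88.8%, 86.7%, 86.8% and 87.6% in aged cultures. So Ptgs1 was the main cyclooxygenase transcript in all 10 untreated cultures and Ptgs2 in all 10 LPS-treated ones, at both ages.

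The mean share rose by 86.0 percentage points in young cultures, from 5.25% ± 1.13 to 91.3% ± 1.43 (SD, n = 5), and by 82.2 points in aged cultures, from 5.40% ± 0.845 to 87.6% ± 0.848. Under LPS the aged cultures differed from the young ones by -3.70 points, with no overlap. Each of these 3 differences had p = 0.00794 in an exact two-sided permutation test, the smallest p that 5 against 5 cultures allow, and an adjusted p of 0.0106 over the 4 permutation tests of the share. Where LPS was compared with no treatment, this p was fixed in advance. Each gene alone already separated those groups without overlap, in opposite directions. There the test of the share adds no evidence beyond the tests of the single genes. Paired by batch, the exact sign-flip test cannot go below 0.0625, which became 0.0833 after adjustment. The untreated shares differed by 0.159 points (exact permutation p = 0.81).

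**Figure D2:**
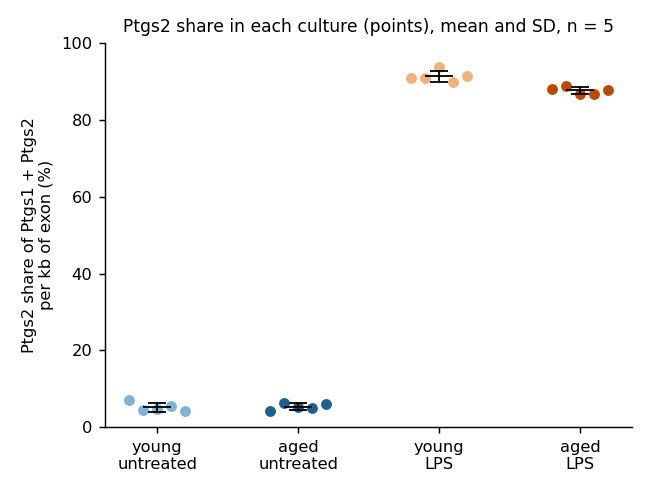
Share of Ptgs2 in the sum of Ptgs1 and Ptgs2 CPM per kilobase of exon (percent, linear axis) in each culture, with the mean and SD of 5 cultures per group. Untreated cultures lay between 4.17% and 7.06%, young LPS-treated cultures between 89.8% and 93.6% and aged LPS-treated cultures between 86.7% and 88.8%.

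Of the prostaglandin E synthases, the inducible microsomal enzyme encoded by Ptges rose with LPS at both ages from a level near the floor. Ptges (chromosome 2, 30889471 to 30929863, minus strand) was at 0.413, 0.319, 0.241, 0.263 and 0.399 CPM in young and 0.517, 0.403, 0.513, 0.604 and 0.599 CPM in aged untreated cultures. It was at 4.84, 4.06, 3.58, 3.28 and 2.80 CPM in young and 3.86, 5.77, 5.79, 4.25 and 4.48 CPM in aged LPS-treated cultures. All LPS-treated cultures exceeded all untreated ones, while the ages overlapped within each treatment.

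The rise of Ptges was 11.0-fold in young cultures (log2 3.47 ± 0.222, edgeR adjusted p = 4.5e-12) and 8.98-fold in aged cultures (log2 3.17 ± 0.194, edgeR adjusted p = 3.94e-12). Ptges passed the filter on low counts only through the LPS-treated groups where it was high, with 4 to 11 counts per untreated library, so that its LPS test was not independent of that filter. The difference between these responses was -0.30 ± 0.326 (edgeR adjusted p = 0.741). Untreated aged cultures held 0.69 ± 0.297 more on the log2 scale, higher in 5 of 5 batches but on at most 0.604 CPM and outside the threshold (edgeR adjusted p = 0.19). With LPS the aged cultures were 0.39 ± 0.151 higher, in 4 of 5 batches (edgeR adjusted p = 0.0564), and this passed without the young LPS-treated culture 1 (edgeR adjusted p = 0.0184), without the aged LPS-treated culture 1 (edgeR adjusted p = 0.0319) or with library sizes alone (edgeR adjusted p = 0.0168). Without batch 1 this difference passed as well (log2 difference 0.57, edgeR adjusted p = 0.0113).

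Ptges2 (chromosome 2, 32395896 to 32405772, plus strand), which encodes another membrane-associated prostaglandin E synthase, was at 64.2, 54.3, 53.6, 50.2 and 57.0 CPM in young and 62.9, 59.3, 64.9, 59.4 and 62.7 CPM in aged untreated cultures. After LPS it was at 50.9, 44.7, 46.1, 41.1 and 42.8 CPM in young and 49.7, 56.8, 54.2, 51.7 and 48.4 CPM in aged cultures. The shifts were small beside those of Ptges, and only the aged groups did not overlap between treatments. LPS lowered it by 0.31 ± 0.066 (edgeR adjusted p = 3.02e-04) in young and by 0.25 ± 0.065 (edgeR adjusted p = 0.00284) in aged cultures on the log2 scale, in 5 of 5 batches each. Aged LPS-treated cultures held 0.21 ± 0.067 more than young ones (edgeR adjusted p = 0.0207), higher in 4 of 5 batches. That call was lost without the young LPS-treated culture 4 (edgeR adjusted p = 0.057) or 5 (edgeR adjusted p = 0.0515) or the aged LPS-treated culture 2 (edgeR adjusted p = 0.0665), and without batch 2, 3, 4 or 5 (edgeR adjusted p 0.0535 to 0.146). The untreated difference of 0.15 ± 0.065 did not pass the test (edgeR adjusted p = 0.151), except without the young untreated culture 1, the highest of its group (edgeR adjusted p = 0.0439).

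Tbxas1 (chromosome 6, 38875404 to 39084585, plus strand), the thromboxane A synthase gene, passed the test for age in both treatments and for LPS at neither age. Its level was 5.58, 6.96, 7.12, 3.89 and 4.19 CPM in young and 1.62, 2.29, 3.76, 2.52 and 2.06 CPM in aged untreated cultures. In the LPS-treated groups it was 4.24, 5.80, 4.34, 3.28 and 3.97 CPM in young and 1.96, 2.06, 2.27, 2.17 and 1.95 CPM in aged cultures. Aged cultures lay below young ones without overlap in either treatment, although the highest aged untreated value, 3.76 CPM in batch 3, came close to the lowest young one.

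Tbxas1 was 2.25-fold lower in aged untreated cultures (log2 -1.17 ± 0.202, edgeR adjusted p = 6.24e-04) and 2.07-fold lower in aged LPS-treated cultures (log2 -1.05 ± 0.222, edgeR adjusted p = 0.00101), lower in 5 of 5 batches each time. The LPS differences were -0.37 ± 0.195 in young (edgeR adjusted p = 0.106) and -0.25 ± 0.23 in aged cultures (edgeR adjusted p = 0.389). The young one passed without the young untreated culture 4 (edgeR adjusted p = 0.0396), without the young LPS-treated culture 2 (edgeR adjusted p = 0.0401) or with library sizes alone (log2 difference -0.59, edgeR adjusted p = 0.00984). Platelets are a classical source of this enzyme, and the summed level of 5 platelet markers was 29.2 to 50.4 CPM in young and 17.8 to 39.4 CPM in aged untreated cultures, and 22.1 to 50.8 CPM and 13.0 to 38.2 CPM with LPS. Most of it was Pf4, with means of 41.3 CPM in young and 26.1 CPM in aged untreated cultures and of 39.5 and 24.5 CPM with LPS. The platelet markers Gp9 and Gp1bb were at or below the floor in every library, and Itga2b and Ppbp had at most 6 and 5 counts. The part of these markers in the Tbxas1 differences was not tested.

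Of the leukotriene genes, Alox5 (chromosome 6, 116410077 to 116461178, minus strand) was barely detected. Its counts were 0, 2, 0, 1 and 0 in young and 1, 3, 1, 0 and 4 in aged untreated libraries, and 0, 0, 0, 1 and 0 in young and 0, 3, 0, 0 and 0 in aged LPS-treated libraries. Only 1 of 20 libraries exceeded the floor of 3 counts, by 1 count, and Alox5 did not pass the filter on low counts. A difference in this gene was not detectable at this depth.

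The gene of its partner protein, Alox5ap (chromosome 5, 149264767 to 149288153, plus strand), was well expressed. It was at 95.3, 89.9, 80.9, 72.6 and 83.0 CPM in young and 64.5, 70.3, 77.4, 64.1 and 66.3 CPM in aged untreated cultures. In the LPS-treated groups it was at 48.6, 56.8, 48.1, 46.3 and 54.6 CPM in young and 36.3, 43.9, 46.9, 38.2 and 47.3 CPM in aged cultures. Treated and untreated cultures did not overlap at either age, and the ages overlapped within each treatment.

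LPS lowered Alox5ap 1.66-fold in young cultures (log2 -0.73 ± 0.084, edgeR adjusted p = 8.23e-08) and 1.61-fold in aged cultures (log2 -0.69 ± 0.084, edgeR adjusted p = 3.78e-07). Aged cultures were lower by 0.30 ± 0.082 without LPS (edgeR adjusted p = 0.0197) and by 0.26 ± 0.086 with LPS (edgeR adjusted p = 0.0263) on the log2 scale, lower in 5 of 5 batches each time. The untreated call was lost without any of the young untreated cultures 1 or 2 or the aged untreated culture 4 (edgeR adjusted p 0.0586 to 0.063), and without batch 1, 2 or 5 (edgeR adjusted p 0.0687 to 0.11). The LPS-treated call was lost without any of the young cultures 2 or 5 or the aged cultures 1 or 4 (edgeR adjusted p 0.0648 to 0.0873), without batch 1, 2 or 5 (edgeR adjusted p 0.0564 to 0.137) and with library sizes alone (log2 difference -0.18, edgeR adjusted p = 0.0934).

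Lta4h (chromosome 10, 93453411 to 93484875, plus strand), whose product makes leukotriene B4, ranged from 49.2 to 66.7 CPM over all cultures, the smallest ratio of highest to lowest culture among the 9 tested genes. Single cultures were at 59.6, 66.7, 63.7, 60.8 and 62.2 CPM in young and 59.3, 64.4, 60.6, 60.7 and 57.9 CPM in aged untreated cultures. With LPS it was 51.2, 53.6, 53.2, 54.2 and 56.5 CPM in young and 60.7, 53.3, 49.2, 56.7 and 57.6 CPM in aged cultures. In young cultures every LPS-treated value was below every untreated one, a log2 difference of -0.22 ± 0.053 (edgeR adjusted p = 9.73e-04). In aged cultures the groups overlapped and the difference of -0.13 ± 0.053 was at the threshold (edgeR adjusted p = 0.0475). It was lost with the batches as a block (log2 difference -0.13, edgeR adjusted p = 0.0506) and without any 1 of 7 of the 10 libraries, namely the aged untreated cultures 1 to 4 or the aged LPS-treated cultures 2 to 4 (edgeR adjusted p 0.054 to 0.165), or without batch 2, 3 or 4 (edgeR adjusted p 0.0934 to 0.235). No filter (edgeR adjusted p = 0.0973) or only the groups compared (edgeR adjusted p = 0.0771) lost this call as well. The ages differed by -0.048 ± 0.052 without LPS (edgeR adjusted p = 0.63) and by 0.045 ± 0.053 with LPS (edgeR adjusted p = 0.581).

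The EP4 receptor gene Ptger4 (chromosome 15, 5206661 to 5244187, minus strand) was at 28.1, 35.2, 39.0, 35.3 and 36.2 CPM in young and 32.9, 32.6, 31.8, 32.6 and 34.9 CPM in aged untreated cultures. After LPS it was at 36.6, 45.9, 45.6, 37.3 and 41.3 CPM in young and 33.6, 36.4, 42.2, 31.1 and 38.5 CPM in aged cultures. The young LPS-treated group was highest on average and lay above all aged untreated cultures, while the other pairs of groups overlapped. The LPS difference was 0.25 ± 0.087 in young cultures (edgeR adjusted p = 0.0153), higher in 5 of 5 batches, and 0.14 ± 0.087 in aged cultures (edgeR adjusted p = 0.174). With library sizes alone the young call was lost (log2 difference 0.03, edgeR adjusted p = 0.781) and the aged difference turned to -0.017. The young call was also lost without the young untreated culture 1 (edgeR adjusted p = 0.0553) or the young LPS-treated culture 3 (edgeR adjusted p = 0.0504) or without batch 2 (edgeR adjusted p = 0.0895).

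Aged LPS-treated cultures were lower in Ptger4 in 5 of 5 batches, by 0.19 ± 0.088 on the log2 scale (edgeR adjusted p = 0.12), which passed with the batches as a block (log2 difference -0.18, edgeR adjusted p = 0.0476) and without the aged LPS-treated culture 3 (edgeR adjusted p = 0.0367). Ptger4 shares 82 exon bases with Ttc33 on the opposite strand, which had 338 to 659 counts per library. Whether reads there were assigned by strand is not given in the sources used here, so the Ptger4 values are uncertain to that extent. The genes that share exon bases with Ptgs1, Alox5ap and Tbxas1 held at most 2 counts in any library.

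**Figure D3:**
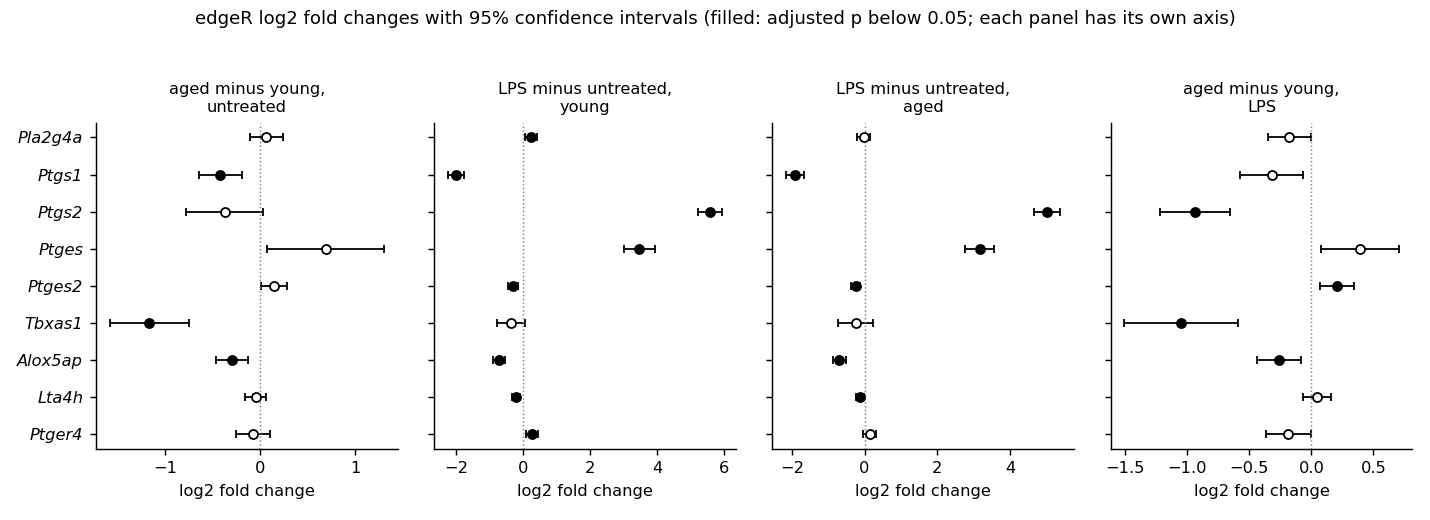
Fitted log2 differences of the 9 tested genes with their 95% confidence intervals, for age without LPS, LPS in young, LPS in aged and age with LPS. Ptgs2 and Ptges lie far to the right and Ptgs1 to the left in both LPS comparisons, and Tbxas1 lies at -1.17 and -1.05 in the 2 age comparisons.

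Counted together, 9 of the 10 genes passed the filter on low counts, and Ptges did so only through its level in the LPS-treated groups. Between aged and young untreated cultures none of the 9 rose and 3 fell (Ptgs1, Alox5ap and Tbxas1), against 3.71% of the 12799 tested genes called higher and 7.81% called lower at an edgeR adjusted p below 0.05. The median log2 difference was -0.079 over the 9 genes and -0.014 over all genes. In young cultures LPS raised 4 (Ptgs2, Ptges, Pla2g4a and Ptger4) and lowered 4 (Ptgs1, Ptges2, Alox5ap and Lta4h), against 31.2% and 33.5% of all genes, with a median of -0.22 against -0.011. With library sizes alone these counts were 2 and 5, and the median of all genes shifted to -0.23. In aged cultures LPS raised 2 (Ptgs2 and Ptges) and lowered 4 (Ptgs1, Ptges2, Alox5ap and Lta4h), against 27.5% and 26.9% of all genes, with a median of -0.13 against 0.00051.

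Between aged and young LPS-treated cultures 1 gene was higher (Ptges2) and 3 were lower (Ptgs2, Alox5ap and Tbxas1), against 14.0% and 15.0% of all genes, with a median of -0.19 against 0.0085. With library sizes alone the counts were 2 and 2. With the batches as a block they were 1 and 6, as Ptgs1, Pla2g4a and Ptger4 joined the lower genes, and the calls over all genes went from 1794 higher and 1923 lower to 2081 and 2199. The LPS responses of the ages differed in none of the 9 by edgeR, against 4.12% of all genes with a higher and 2.27% with a lower response in aged cultures, and DESeq2 and the block gave 0 as well. At an unadjusted p below 0.05 the response differed in 1 of the 9 genes, Ptgs2, and in 2481 of the 12799 tested. Without Ptges, the counts of higher and lower genes over the other 8 were 0 and 3 for age without LPS, 3 and 4 for LPS in young, 1 and 4 for LPS in aged, and 1 and 3 for age with LPS.

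The order of the levels, as CPM per kilobase of exon so that genes can be compared, changed with LPS mainly through the cyclooxygenases. In young untreated cultures Alox5ap led with 59.4 ± 6.11 CPM per kb (SD, n = 5), followed by Ptgs1 with 35.1 ± 2.38, Pla2g4a with 22.8 ± 2.41, Ptges2 with 11.0 ± 1.04 and Lta4h with 10.3 ± 0.454. Below them were Ptger4 with 5.23 ± 0.604, Ptgs2 with 1.94 ± 0.446, Tbxas1 with 0.61 ± 0.165, Ptges with 0.0833 ± 0.0198 and, last, Alox5. Only Ptges2 and Lta4h overlapped as neighbours in that order. The aged untreated order was the same, with 48.2 ± 3.90 for Alox5ap and with 26.2 ± 2.45 for Ptgs1 and 23.9 ± 1.46 for Pla2g4a, which overlapped.

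In young LPS-treated cultures Ptgs2 was first with 93.3 ± 17.9 CPM per kb, above Alox5ap with 35.8 ± 3.21 and Pla2g4a with 26.6 ± 3.53. Ptges2 with 8.93 ± 0.74, Lta4h with 8.81 ± 0.313 and Ptgs1 with 8.73 ± 1.22 could not be ordered within their spread, and Ptges passed Tbxas1 with 0.944 ± 0.198 against 0.476 ± 0.101. In aged LPS-treated cultures Ptgs2 was again first with 48.8 ± 9.70, with Alox5ap at 29.9 ± 3.52 and Pla2g4a at 23.6 ± 1.69. Each of the next 4, Ptges2, Lta4h, Ptgs1 and Ptger4, from 10.3 down to 5.47, overlapped with its neighbour.

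**Figure D4:**
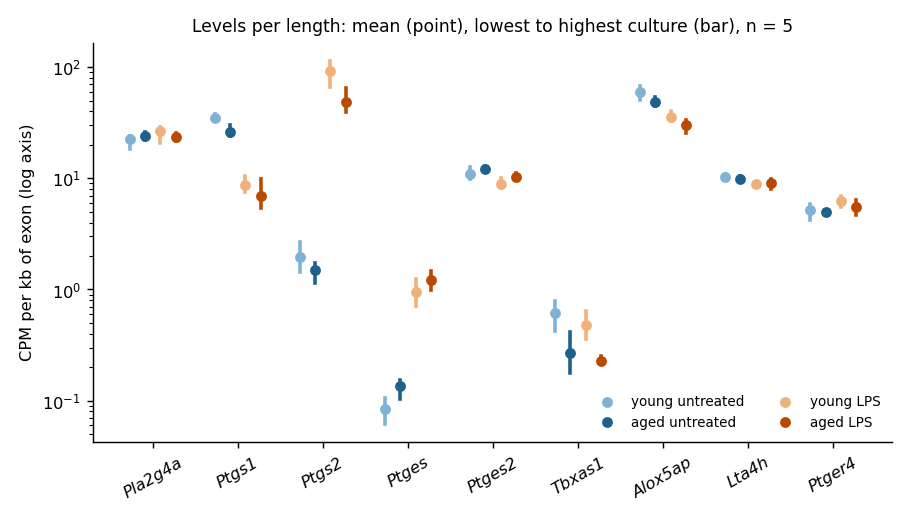
Mean CPM per kilobase of exon (log axis) of 9 of the genes, without Alox5, in each of the 4 groups, with the lowest and highest culture. Ptgs2 moves from 1.94 to 93.3 in young cultures with LPS and reaches 48.8 in aged ones, while the group means of Alox5ap and Pla2g4a stay between 22.8 and 59.4.

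Across the 20 libraries, the genes whose log2 CPM was most like that of Ptgs2 were the chemokine genes Ccl3 (Pearson r = 0.997) and Ccl4 (r = 0.997) and the integrin gene Itga5 (r = 0.997). Those most like Ptgs1 were the integrin gene Itga6 (r = 0.99), Igfbp4 (r = 0.988), which encodes an insulin-like growth factor binding protein, and Abcd2 (r = 0.987), which encodes a peroxisomal transporter. These are descriptions over libraries that share 4 groups, and the LPS difference dominates them.

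The rest of the route was read from 58 further genes, of which 28 passed the filter on low counts. Between aged and young untreated cultures 3 of the 28 were higher and 3 lower, LPS raised 10 and lowered 9 in young and 8 and 8 in aged cultures, and 2 were higher and 6 lower in aged than in young LPS-treated cultures. Their medians were -0.12, -0.067, -0.089 and -0.055, and the shares of all genes called are those given above. With library sizes alone the LPS counts were 5 and 12 in young and 5 and 11 in aged cultures, and with LPS the age counts were 4 and 6.

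Among the other genes that release or handle fatty acids, the secreted phospholipase A2 gene Pla2g5 rose with LPS by 0.82 ± 0.089 in young (edgeR adjusted p = 3.4e-08) and 0.96 ± 0.09 in aged cultures (edgeR adjusted p = 5.15e-09), from 62.7 ± 5.40 to 111 ± 15.4 CPM and from 53.9 ± 2.36 to 105 ± 12.5 CPM (SD, n = 5). Daglb, a diacylglycerol lipase gene, fell by 1.06 ± 0.082 (edgeR adjusted p = 1.12e-10) and 0.68 ± 0.081 (edgeR adjusted p = 2.53e-07). The Daglb fall was smaller in aged cultures by 0.38 ± 0.115 and in 5 of 5 batches (edgeR adjusted p = 0.047), the only response among these 28 genes that passed that test, with the closing section giving its alternatives. Faah, a fatty acid amide hydrolase gene, was higher in aged cultures by 0.65 ± 0.15 without LPS (edgeR adjusted p = 0.0068) and 0.70 ± 0.171 with LPS (edgeR adjusted p = 0.00353), and fell with LPS by 0.80 ± 0.169 in young (edgeR adjusted p = 2.55e-04) and 0.74 ± 0.152 in aged cultures (edgeR adjusted p = 2.58e-04).

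Anxa1, which encodes an inhibitor of phospholipase A2 activity, rose with LPS from 41.2 ± 8.56 to 104 ± 29.4 CPM in young cultures (log2 1.34 ± 0.234, edgeR adjusted p = 3.04e-05) and from 33.3 ± 9.73 to 53.4 ± 19.4 CPM in aged cultures (log2 0.68 ± 0.238, edgeR adjusted p = 0.0197). The aged rise was lost without the aged untreated culture 1 (edgeR adjusted p = 0.0606), the aged LPS-treated culture 3 (edgeR adjusted p = 0.0984) or with library sizes alone (edgeR adjusted p = 0.0612). It was also lost without batch 2 (edgeR adjusted p = 0.0624) or 5 (edgeR adjusted p = 0.0634). With LPS, Anxa1 was lower in aged cultures by 0.96 ± 0.232 (edgeR adjusted p = 0.00307) and in 5 of 5 batches. Pla2g4c, a scarce phospholipase gene, was higher in aged untreated cultures (1.37 ± 0.292 against 0.828 ± 0.122 CPM, log2 0.72 ± 0.204, edgeR adjusted p = 0.0245), a call lost by DESeq2 (DESeq2 adjusted p = 0.0783) and without any of the young untreated cultures 1, 2 or 5 or the aged untreated culture 3 (edgeR adjusted p 0.0539 to 0.0949). That call was also lost with no filter (edgeR adjusted p = 0.105) and without batch 1, 2, 3 or 5 (edgeR adjusted p 0.0577 to 0.0981). In aged cultures Pla2g4c fell with LPS by 0.78 ± 0.211 (edgeR adjusted p = 0.00345).

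Of the other prostanoid synthases and reductases, Cbr1, a carbonyl reductase gene, fell with LPS by 0.54 ± 0.08 in young (edgeR adjusted p = 2.82e-06) and 0.36 ± 0.079 in aged cultures (edgeR adjusted p = 5.37e-04). Gstm2, a glutathione transferase gene, rose with LPS in young cultures by 0.72 ± 0.233 (edgeR adjusted p = 0.00933, and 0.0561 with library sizes alone) and was lower in aged than in young LPS-treated cultures by 0.73 ± 0.235 (edgeR adjusted p = 0.0224). That age call was lost without the young LPS-treated culture 3 (edgeR adjusted p = 0.0957) or the aged LPS-treated culture 1 (edgeR adjusted p = 0.0658). It was also lost without batch 1, 2 or 5 (edgeR adjusted p 0.0514 to 0.096).

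The genes of prostaglandin breakdown and export moved in both directions with LPS. The prostaglandin reductase gene Ptgr1 rose by 1.02 ± 0.173 in young (edgeR adjusted p = 2.03e-05) and 0.70 ± 0.175 in aged cultures (edgeR adjusted p = 0.00184), while Ptgr2 fell by 0.72 ± 0.049 (edgeR adjusted p = 1.3e-11) and 0.51 ± 0.048 (edgeR adjusted p = 6.91e-09). Abcc4, a transporter that exports prostaglandins, rose by 0.58 ± 0.065 (edgeR adjusted p = 6.41e-08) and 0.39 ± 0.065 (edgeR adjusted p = 2.76e-05). Hpgd, the main prostaglandin dehydrogenase gene, had at most 2 counts per library.

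Of the 8 other prostanoid receptor genes only the prostacyclin receptor gene Ptgir and, at up to 23 counts, Ptger1 passed the filter. Ptgir rose with LPS by 1.13 ± 0.077 in young cultures (59.8 ± 6.86 to 131 ± 13.0 CPM, edgeR adjusted p = 1.31e-11) and by 0.97 ± 0.077 in aged cultures (63.5 ± 3.69 to 125 ± 8.79 CPM, edgeR adjusted p = 3.09e-10). The receptor genes Ptger2, Ptger3, Ptgdr2 and Tbxa2r had at most 3 counts in any library, and Ptgdr and Ptgfr had 0.

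On the leukotriene side, Ltc4s, the leukotriene C4 synthase gene, was lower with age and with LPS, from 5.34 ± 0.43 CPM in young untreated to 0.708 ± 0.395 CPM in aged LPS-treated cultures. It fell by 1.33 ± 0.212 with age without LPS (edgeR adjusted p = 3e-04), by 1.51 ± 0.224 with LPS in young (edgeR adjusted p = 3.36e-06), by 1.55 ± 0.285 with LPS in aged (edgeR adjusted p = 8.08e-05) and by 1.36 ± 0.3 with age under LPS (edgeR adjusted p = 0.00144) on the log2 scale, in 5 of 5 batches each time. Mgst2, a related glutathione transferase gene, fell with LPS by 0.83 ± 0.183 in young (edgeR adjusted p = 4.11e-04) and 0.62 ± 0.188 in aged cultures (edgeR adjusted p = 0.00804). It was lower in aged untreated cultures by 0.47 ± 0.175, which did not pass the test but did with the batches as a block (edgeR adjusted p = 0.0833 without the block and 0.0208 with it).

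Cysltr1, the only leukotriene receptor gene that passed the filter, was lower in aged than in young LPS-treated cultures by 0.81 ± 0.201 (6.14 ± 2.16 against 10.9 ± 2.81 CPM, edgeR adjusted p = 0.00376, and 0.0587 without batch 2). Cyp4f18, whose product breaks down leukotriene B4, was lower by 1.21 ± 0.309 in the same comparison at under 2 CPM (0.445 ± 0.159 against 1.06 ± 0.289 CPM, edgeR adjusted p = 0.00479). It had at most 17 counts in any library and passed the filter on low counts only with all 20 libraries, not within these 2 groups. The leukotriene B4 receptor genes Ltb4r1 and Ltb4r2 had at most 2 counts in any library.

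**Figure D5:**
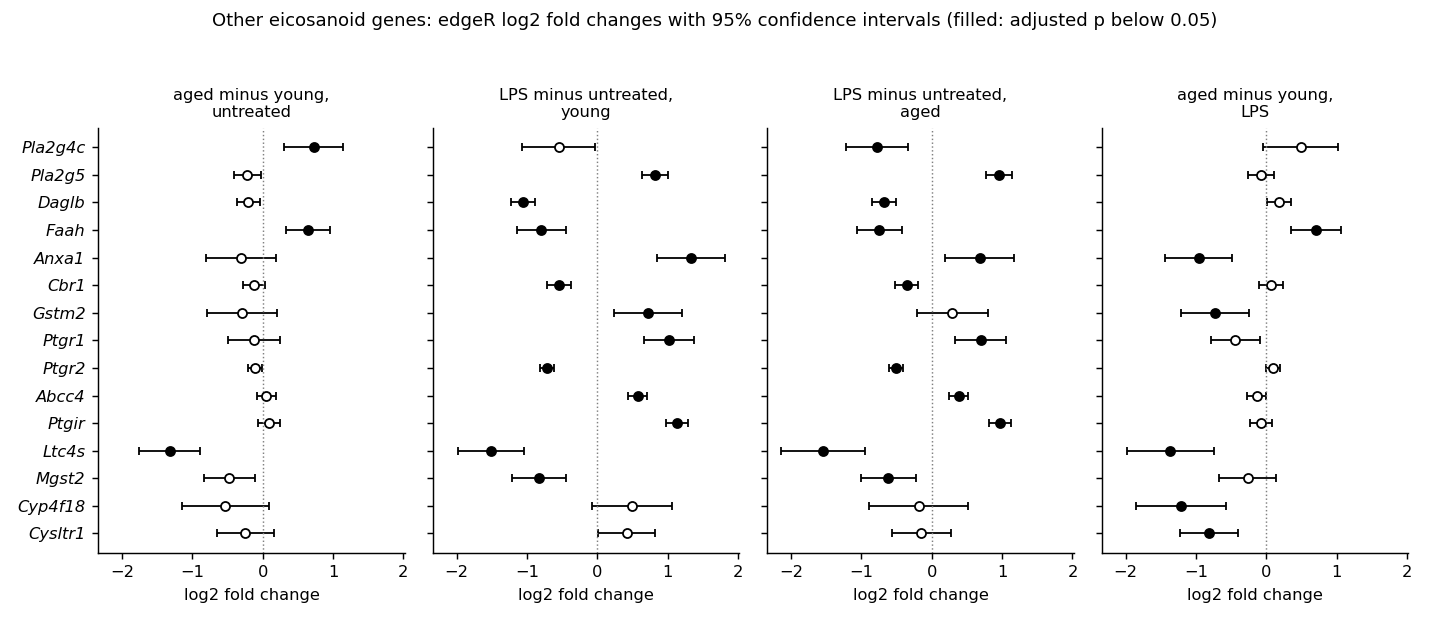
Fitted log2 differences with 95% confidence intervals of the 15 other eicosanoid genes named by rule, in the comparisons of age and LPS. Ltc4s lies below 0 in all 4 comparisons, from -1.33 to -1.55, and Ptgir, Pla2g5, Ptgr1 and Abcc4 lie above 0 in both LPS comparisons.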

How the data were processed

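Poly(A) RNA of 20 BV-2 cultures was made into stranded Illumina libraries. The authors aligned the reads with STAR 2.6.1d to the mouse genome GRCm38, counted them per gene with featureCounts 1.5.1 and deposited whole-number counts without normalization, after quality control with FastQC 0.11.8. Tools and versions are from the submitters' processing notes. The settings for strand and multiple alignments are not given in the sources used here. Cultures were grouped by their labels.

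Counts were modelled in edgeR 4.0.16 (with limma 3.58.1 under R 4.3.3) by its quasi-likelihood method. All 20 libraries entered, group was the sole term, scaling was by TMM, and filterByExpr left 12799 genes. Benjamini-Hochberg adjustment ran over these genes at a threshold of 0.05. Differences are given with their standard errors, and p-values cover the spread between cultures, which may be partly technical. No 2 replicates agreed within sampling noise (chi-square per degree of freedom 2.37 to 25.7 over 40 pairs). A count of 3 was the floor, and floors cover counting error only. The test was checked on simulated data.

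Cultures with the same replicate number in the labels were treated as a batch and so as paired. Across genes, cultures of 1 number tended to deviate together from the means of their groups. The average correlation was 0.146 over 30 pairs, above 0.1 in 19 of them. Between the treatments of 1 age the correlation was 0.122 to 0.394. Between the ages it was -0.214 to 0.275, and below 0 in batch 1 (-0.214 to -0.042), so cultures of different age were less closely paired. The fit with this block stands beside a result where it changed the call.

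Positions and exon lengths are from GENCODE M21 (GRCm38), in which 55227 of 55487 identifiers were found. The members and lists were chosen with earlier results of these data known. The 10 members were all named. Of 58 other eicosanoid genes, those called with a log2 difference of at least 0.5 in any comparison were named (15 genes), as were the 3 genes most correlated in log2 CPM (prior count 2) with the members of largest rise and fall under LPS. Genes given as undetected were chosen after their values were seen. Dpep2, whose symbol 2 identifiers share, was left out.

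Alternative settings were a Wald test in DESeq2 1.42.0, the replicate block in edgeR, DESeq2 size factors or library sizes alone, no filter, at least 10 counts in every library, only the groups compared, and each batch or library left out. Those of the other eicosanoid genes were added after seeing the data. The Ptgs2 share was compared by exact permutation in numpy 2.4.6 under Python 3.11.15 (with pandas 2.3.3 and scipy 1.17.1), and plots were drawn in matplotlib 3.10.9.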

Additional observations from a re-analysis of the deposited data

Results flagged for a closer look

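In 4 of 101 groups of 5 cultures a single culture lay apart from the others by Dixon's criterion, which chance alone flags in about 1 in 20 groups. Pla2g4a in young untreated cultures had its lowest value at 118 CPM in culture 1. Pla2g4c in aged untreated cultures had its highest value at 1.88 CPM. Ptgr2 in aged untreated cultures had its highest value at 88.6 CPM. Ptgir in young LPS-treated cultures had its lowest value at 109 CPM.

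The LPS response of Daglb differed between the ages by 0.38 on the log2 scale (edgeR adjusted p = 0.047, a smaller fall in aged cultures, in 5 of 5 batches). This call was lost when any of 15 of the 20 libraries was left out (edgeR adjusted p 0.0581 to 0.103, differences of 0.31 to 0.40), without any of the 5 batches (edgeR adjusted p 0.06 to 0.321) and with DESeq2 size factors (edgeR adjusted p = 0.0633), and kept with the batches as a block (edgeR adjusted p = 0.0376).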

How the results depend on the processing

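Over the alternatives other than leaving out single libraries, 484 of 525 results of the 10 genes kept their direction and their side of the threshold. Of the rest, 26 lost the call, 12 gained one and 3 changed sign. For the other eicosanoid genes, in the comparisons where they were called, 379 of 399 kept the call and 20 lost it. Calls that changed when a single library was left out are not in these counts and are given with the results above. The changes of sign were in uncalled differences. Ptger4 in aged cultures with LPS became -0.017 with library sizes alone, Lta4h between aged and young LPS-treated cultures ranged from -0.0028 to 0.081 when a batch was left out, and the difference of the Ptgs1 responses ranged from -0.083 to 0.26. With the replicate block, 7 members were called between aged and young LPS-treated cultures in place of 4, while the calls over all genes went to 2081 higher and 2199 lower from 1794 and 1923. From 2 to 6 members were called there when a batch or library was left out. Between untreated cultures 1 to 3 were called when a batch or library was left out, with 1 left without batch 2 or batch 5. The Ptgs2 share under the replicate block had the same differences, 86.0, 82.2 and -3.70 points, with an adjusted exact p of 0.0833, since a paired test of 5 batches cannot go below 0.0625. The untreated share difference ranged from -0.256 to 0.911 points when a batch was left out. Apart from the changes given beside the results, the block changed no other call of the 10 genes. Over all genes, leaving out batch 2 reduced the calls between untreated cultures to 120 higher and 428 lower from 475 and 1000, those between aged and young LPS-treated cultures to 960 and 1196, and those of the difference of responses to 148 and 41 from 527 and 291. Library sizes alone split the LPS calls of young cultures into 2407 and 6401 (from 3988 and 4282), those of aged cultures into 2172 and 5476 (from 3523 and 3445) and those of age under LPS into 3167 and 1353. The causes were not tested. Depth limits Alox5, Ptges without LPS and the other genes near the floor.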
